A study of Homo sapiens with 6 samples.

Results

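The protein components of the small ribosomal subunit were described by their ribosome footprints in WPMY-1 cells with and without a hairpin against TRMT61A. They were taken as 32 Ensembl gene IDs, each compared with the deposited IDs after the version was cut off. The 32 are RPS2 to RPS29 as far as these names exist in the list, with RPSA and FAU. All 32 IDs were found among the 62492 features of the table, and the symbols come from the list that defines the members, since the file pairs no ID with a name. Of the 32 genes, 30 had at least 1 count and 28 had enough counts to be tested.

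WPMY-1 is an established human cell line from the stroma of the prostate, with features of myofibroblasts. Of its 6 libraries, 3 carried a control hairpin and are labelled TRMT61A wildtype, and 3 carried the TRMT61A hairpin and are labelled TRMT61A knockdown. TRMT61A is the catalytic subunit of the enzyme that writes 1-methyladenosine into tRNA, and the stated purpose was to study its part in the control of translation. Whether the lines are clones, and whether replicates are separate cultures, is not given, so the p-values rest on library-to-library spread that may be technical. The levels of TRMT61A and of stromal markers were not analysed here, for want of names. Libraries held 6771455 to 17752247 counts, and all 3 knockdown libraries were deeper than all 3 controls. Column names call the controls a vector, not a control hairpin.

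The small subunit binds the mRNA, scans for the start codon and holds the decoding centre, where codons are read by tRNA. Its proteins are made in equal numbers and assembled on 1 rRNA, in a head, which carries the beak, and a body with its platform. Their mRNAs are textbook TOP mRNAs, which begin with a C followed by an unbroken run of C and T (U in the RNA), and whose translation is strongly tied to mTOR signalling. A footprint count reflects both the amount of an mRNA and the density of ribosomes on it, and these cannot be told apart here.

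The annotated starts of 8 members are shown because these genes hold the most footprints (RPS23, RPS6, RPS21), have the largest measured differences among members with a start sequence (RPS27A, RPS13, RPS3, RPS27) or, with RPS27A, encode the ubiquitin-type fusions (FAU). The sequences are those of RefSeq on GRCh38.p14 and run from 15 bases before the annotated start to 15 bases from it on. Capitals mark the unbroken run of C and T that opens at a C on the annotated start, within the bases shown.

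RPS23 (chr5:82278340-82278369, minus strand): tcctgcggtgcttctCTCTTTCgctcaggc

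RPS6 (chr9:19380222-19380251, minus strand): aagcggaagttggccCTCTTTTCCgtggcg

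RPS21 (chr20:62387088-62387117, plus strand): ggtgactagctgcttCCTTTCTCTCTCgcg

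RPS27 (chr1:153990747-153990776, plus strand): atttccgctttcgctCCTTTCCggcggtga

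RPS3 (chr11:75399503-75399532, plus strand): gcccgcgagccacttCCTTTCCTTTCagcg

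RPS13 (chr11:17077653-17077682, minus strand): ttccactctcgctctCCTTTCgttgcctga

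FAU (chr11:65122120-65122149, minus strand): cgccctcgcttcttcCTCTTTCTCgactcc

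RPS27A (chr2:55231888-55231917, plus strand): taaggagtgacacacaagacccagactctt

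The start pattern searched was a C on the start base followed by 4 letters that are each C or T, on the transcribed strand only. It was present in 18 of the 25 members with a promoter entry (72.0%), against 4.07% of all 35116 entries and 4.54% of the 22199 entries of protein-coding genes. The members with an entry and without the pattern were RPS4X, RPS7, RPS15, RPS26, RPS27A, RPS28 and RPS29. In RPS27A the annotated start is an A, as the sequence above shows, and no letter is in capitals. A pattern at an annotated start is a description of these letters and does not show which start the cells used.

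Values are given as CPM, counts scaled to a fixed library total, after TMM scaling, which sets libraries to a common level over most features. They are not divided by gene length, so a difference in CPM between genes, where given, is one of counts and not of footprint density. After TMM scaling, 23 of the 28 tested members had a log2 fold change within 0.5 of 0, against 49.4% of all features. RPS27A was the member that passed the test. It fell, so 1 of 28 members was called lower and 0 were called higher (edgeR quasi-likelihood test, adjusted p under 0.05). That is 3.57% of the tested members, against 3.12% of all 11653 features tested, of which 1.64% were called lower. At an unadjusted p under 0.05 there were 5 members in edgeR, 3 lower (RPS27A, RPS13 and RPS3) and 2 higher, RPS27 among them, against 16.3% of all features. The groups did not overlap in 4 of the 28 members (14.3%), against 24.8% of all features. Among the most abundant 20% of features, to which 21 of the members belong, 8.71% were called, 733 of 2331 had an unadjusted p under 0.05 and the groups of 37.2% did not overlap.

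**Figure D1:**
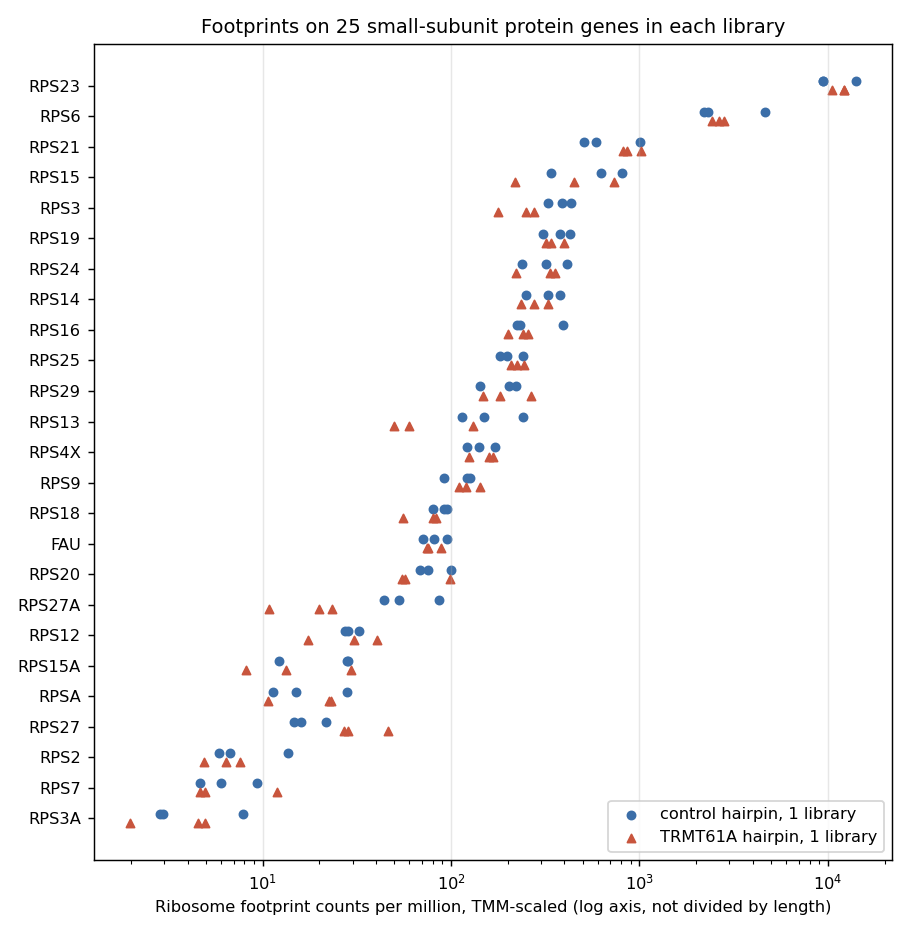
Footprint CPM (TMM-scaled, log axis) of 25 of the 28 tested genes, 1 point for each library, with circles for the 3 control and triangles for the 3 TRMT61A hairpin libraries. RPS23 is the highest in each library, and the groups are apart in RPS27A, RPS3 and RPS27.

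RPS27A (ENSG00000143947.13_3) encodes ubiquitin fused to the protein eS31 of the beak, from which ubiquitin is cleaved. Control libraries 1 to 3 held 634, 359 and 464 raw counts of it, and knockdown libraries 303, 275 and 133, fewer in every knockdown library although these were deeper. As CPM these were 86.0, 44.0 and 52.6 in control and 19.9, 23.3 and 10.8 in knockdown. Every knockdown library lay below every control library. The means were 60.9 ± 22.2 and 18 ± 6.5 CPM (SD, n = 3 each).

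The log2 fold change of RPS27A was -1.76 ± 0.35 (SE), with a 95% interval of -2.52 to -0.996 (adjusted p = 0.0201 in edgeR). This is a level of 0.296 times the control (95% interval 0.175 to 0.502). Leaving out any 1 of the 6 libraries ended the call, with adjusted p between 0.0596 and 0.0937 in edgeR and log2 fold changes between -1.98 and -1.43. The RefSeq gene table places RPS27A across part of CLHC1, and reads of overlapping genes cannot be told apart where strand was not counted. Ubiquitin is encoded by other genes too, which were not analysed here.

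FAU (ENSG00000149806.11_6) is the other fusion among the members, of a ubiquitin-like protein and eS30 of the body. It had 95.5, 80.8 and 71.3 CPM in control and 88.7, 75 and 74.5 CPM in knockdown, so its groups overlapped. Its log2 fold change was -0.056 ± 0.222 (SE), with a 95% interval of -0.54 to 0.43 (adjusted p = 0.950 in edgeR). The difference between RPS27A and FAU was not tested.

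**Figure D2:**
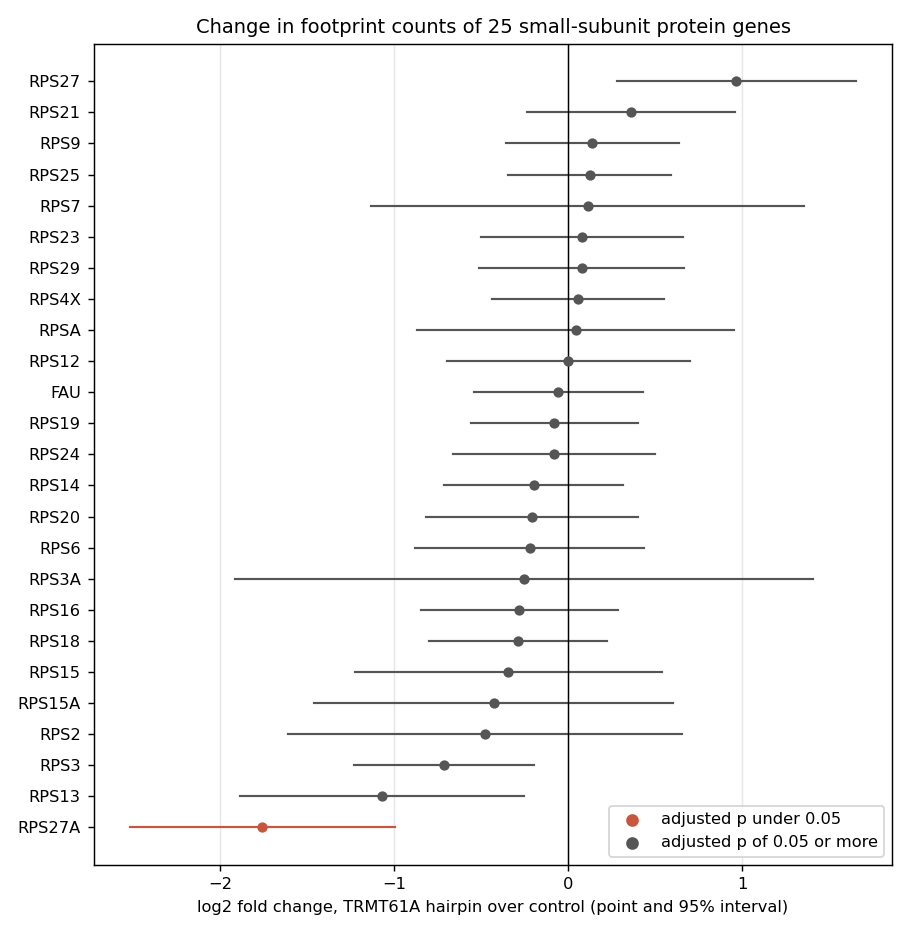
Log2 fold change of TRMT61A hairpin over control libraries for 25 of the 28 tested genes (edgeR, 3 libraries a group), with points for the estimate and lines for its 95% interval. RPS27A, at -1.76, is the gene whose adjusted p was under 0.05, and most of the other estimates lie within 0.5 of 0.

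The other proteins of the head gave no call in edgeR. RPS3 (ENSG00000149273.15_5), a lining of the channel through which mRNA enters, had 390, 435 and 329 CPM in control and 274, 251 and 178 CPM in knockdown. Its groups did not overlap. Its log2 fold change was -0.71 ± 0.24 (SE, 95% interval -1.23 to -0.20), with an adjusted p of 0.139 in edgeR. DESeq2, a different count test, gave RPS3 an adjusted p of 0.0193 at -0.71.

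RPS15, a head protein close to the decoding site, had 812, 340 and 625 CPM in control and 217, 732 and 451 CPM in knockdown. The groups overlapped widely, and knockdown libraries 1 and 2 were the lowest and the second highest of all 6. Its log2 fold change was -0.34 ± 0.40 (SE, 95% interval -1.23 to 0.54).

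RPS19, the gene most often mutated in Diamond-Blackfan anaemia, had 371 ± 59 CPM in control against 351 ± 40 CPM in knockdown (SD, n = 3 each). Its 95% interval was -0.56 to 0.40 on the log2 scale. For RPS16, RPS18, RPS20, RPS25, RPS29 and RPS12 the log2 fold changes ran from -0.29 (RPS18) to 0.12 (RPS25), and the groups of each overlapped. RPS12 had 28.3, 32.6 and 27.4 CPM in control and 40.4, 30.5 and 17.4 CPM in knockdown. Its log2 fold change of 0.00048 therefore averaged knockdown libraries on either side of the controls. RPS29, whose span in the RefSeq table holds the 7SL RNA gene RN7SL1, had 221, 204 and 142 CPM in control and 267, 148 and 183 CPM in knockdown. RPS10 and RPS28, also of the head, had too few counts to test. Of the 11 head members tested, 1 was called, RPS27A, against 3.12% of all features. Their median log2 fold change was -0.21.

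In the body and platform, 17 of 18 members were tested and 0 were called in edgeR, with 3 at an unadjusted p under 0.05. DESeq2 called 1 of these members, RPS13, lower. The median log2 fold change of the 17 was -0.056. RPS13 (ENSG00000110700.7_6), a protein of the platform that binds rRNA early in assembly, had 149, 240 and 114 CPM in control and 130, 59.8 and 49.9 CPM in knockdown. Knockdown library 1 lay inside the control range and the other knockdown libraries lay below it. Its log2 fold change was -1.07 ± 0.37 (SE, 95% interval -1.88 to -0.25; adjusted p = 0.158 in edgeR). RPS13 passed with DESeq2 (adjusted p = 0.0300), in edgeR with no filter on low counts (0.00454) and in edgeR without knockdown library 1 (0.0491, at -1.61). Without control library 2, which had the highest value, the log2 fold change was -0.72.

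RPS27 (ENSG00000177954.14_7), a zinc-binding protein of the platform, had 21.6, 15.9 and 14.6 CPM in control and 28.3, 26.9 and 46.5 CPM in knockdown. Every knockdown library lay above every control library. The log2 fold change of RPS27 was 0.97 ± 0.32 (SE, 95% interval 0.28 to 1.65; adjusted p = 0.133 in edgeR). RPS27 was not called in any of the 17 alternatives, where adjusted p ran from 0.0692 to 0.362.

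RPS21, which sits beside RPSA, had 1001, 586 and 508 CPM in control and 1017, 814 and 859 CPM in knockdown. Control library 1 reached the knockdown range, so its groups overlapped. For RPS21 the log2 fold change was 0.36 ± 0.28 (SE, 95% interval -0.24 to 0.96).

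RPS6 (ENSG00000137154.13_5), the substrate of the S6 kinases whose phosphorylation is read as a mark of mTOR activity, had 2197, 2315 and 4665 CPM in control. In knockdown it had 2631, 2828 and 2416 CPM. Control library 3 was far above the rest, and all 3 knockdown libraries lay above the other 2 controls. The log2 fold change was -0.22 ± 0.30 (SE, 95% interval -0.88 to 0.44), with an adjusted p of 0.815 in edgeR. Without control library 3 its sign turned, to 0.22.

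RPS23 (ENSG00000186468.13_6), a protein of the decoding centre, had 14137, 9375 and 9407 CPM in control and 12125, 12183 and 10476 CPM in knockdown. The knockdown libraries all lay inside the control range. For RPS23 the log2 fold change was 0.079 ± 0.266 (SE), with a 95% interval of -0.50 to 0.66.

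RPS2, RPS3A and RPS7 were thinly covered, with 24 to 182 counts in a library. RPS2 had 13.6, 6.74 and 5.90 CPM in control and 4.87, 7.54 and 6.40 CPM in knockdown. RPS2 lines the mRNA entry, RPS3A lies on the platform and RPS7 is a body protein known for binding MDM2. Their 95% intervals were wide, from -1.61 to 0.65 for RPS2, from -1.91 to 1.40 for RPS3A and from -1.13 to 1.36 for RPS7. These intervals do not separate a 2-fold decrease from none, and those of RPS3A and RPS7 do not exclude a 2-fold increase either. The interval of RPS15A was -1.46 to 0.60, and that of RPSA, also known as a laminin receptor, was -0.87 to 0.95. RPS9, at the mRNA entry like RPS2, had 91.3, 122 and 126 CPM in control and 120, 143 and 110 CPM in knockdown, so its groups overlapped. For RPS9, RPS4X, RPS14 and RPS24 the log2 fold changes ran from -0.20 (RPS14) to 0.14 (RPS9), and the groups of each overlapped.

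The members can also be divided by descent. The 15 universal proteins have relatives in bacteria, and the other 17 occur in archaea and eukaryotes or in eukaryotes alone. Among the universal proteins 0 of 15 were called in the main edgeR fit, with 2 at an unadjusted p under 0.05. DESeq2 called RPS3 and RPS13 of these 15, against 799 of all 11653 features. The median log2 fold change of the 15 was -0.21, with 10 of 15 below 0. Among the others 1 of 13 tested was called, RPS27A (3 at an unadjusted p under 0.05 in edgeR), and the median was 0.00048, with 6 of 13 below 0. Over all features 3.12% were called and 16.3% had an unadjusted p under 0.05 in edgeR. The difference between these medians was not tested. Standard errors of single members ran from 0.21 to 0.76.

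Over all 28 tested members the median log2 fold change was -0.080, against -0.0047 over all features. The middle 50% of the members lay between -0.28 and 0.088, and that of all features between -0.51 and 0.50. Estimates within 0.5 of 0 were found in 23 of the 28 members (82.1%), against 49.4% of all features and 61.8% of the most abundant 20% of features. The 95% interval lay wholly within a 2-fold change in either direction for 18 of the 28 members, so for the other 10 a difference of that size was not excluded by the interval. The median coefficient of variation was 21.6% in control and 21.1% in knockdown for the members, against 32.6% and 35.6% for all features and 19.3% and 18.2% for the most abundant 20%.

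Members often moved together between libraries of 1 group. Of the 28 members, 21, 15 and 8 lay above their own mean over the 6 libraries in control libraries 1 to 3, and 20, 15 and 7 in knockdown libraries 1 to 3. The median deviation from the gene's own mean was 0.32, 0.027 and -0.23 on the log2 scale in control libraries 1 to 3, and 0.14, 0.023 and -0.16 in knockdown libraries 1 to 3. The spread among the controls was thus wider than the median difference between the groups. RPS6 was 1 of the 8 members above their own mean in control library 3. The members share each library's scaling factor, so such a common shift is not independent evidence from 28 genes. The same values are not given here for all features, so they do not show a shift particular to the members.

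**Figure D3:**
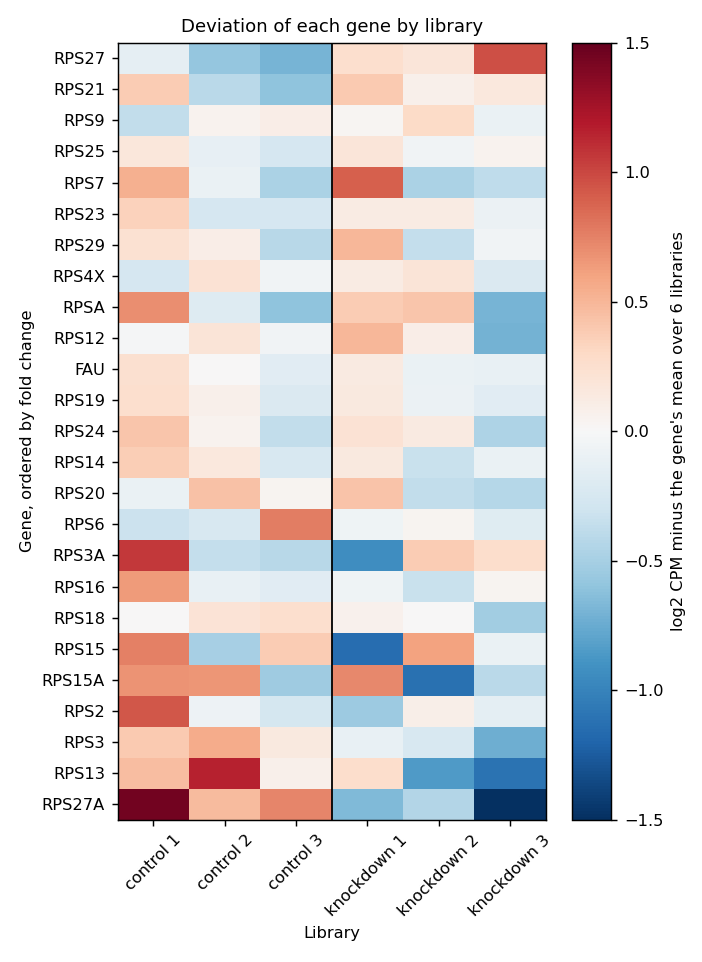
Log2 CPM of 25 of the tested genes in each library minus that gene's mean over the 6 libraries, with genes in order of fold change, red above and blue below the mean and colours capped at 1.5. Most genes are red in control library 1 and in knockdown library 1. RPS27A and RPS3 are redder in every control than in every knockdown library, while RPS13 is redder in knockdown library 1 than in control library 3.

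The sum of the 32 genes depended on the scaling. The members took 2.05%, 1.98% and 2.19% of all counts in control libraries 1 to 3 and 1.69%, 1.76% and 1.67% in knockdown libraries 1 to 3. Wilson 95% intervals, which cover counting error only, were narrow, from 2.18% to 2.20% for control library 3. Every knockdown library lay below every control, and the ratio of the means was 0.822. With TMM scaling the same sums were 2.23%, 1.65% and 1.82% of the scaled total in control and 1.98%, 1.98% and 1.72% in knockdown, the groups overlapped and the ratio was 0.995. By library size alone the median log2 fold change was -0.36 for the members, with 25 of 28 below 0, and -0.30 for all features. The members therefore lay close to the median of all features under either scaling, and which scaling is true was not tested.

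RPS23 alone held 63.5%, 56.9% and 51.6% of the member counts in control and 61.3%, 61.7% and 61.0% in knockdown. It was 1.02% to 1.3% of all counts in a library. RPS6 held 16.5% ± 8.1 of the member counts in control against 13.9% ± 0.5 in knockdown (SD, n = 3 each), and RPS21 held 3.61% ± 0.86 and 4.75% ± 0.56. Without RPS23 the members' share of the library was 0.888% ± 0.159 for controls and 0.660% ± 0.012 for knockdown libraries (SD, n = 3 each). The ratio of these means was 0.743, and the groups did not overlap. Control libraries 1 to 3 had shares of 0.749%, 0.854% and 1.06% without RPS23. In the same libraries RPS6 held 9.86%, 14.1% and 25.6% of the member counts. RPS23's own share of the library had a ratio of 0.881. With TMM scaling and without RPS23 the ratio was 0.912 and the groups overlapped.

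**Figure D4:**
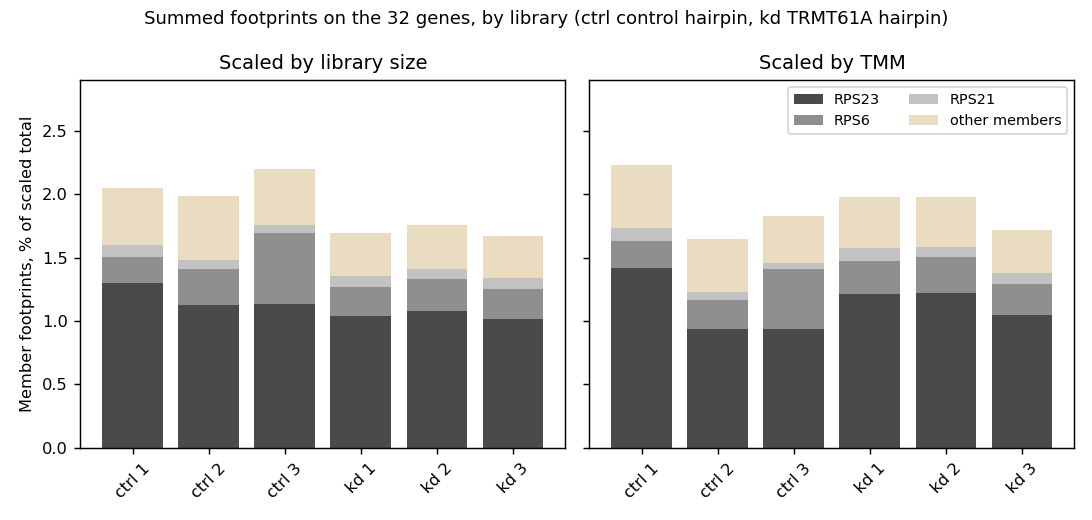
Stacked bars of the footprints on the 32 genes in each library, as a percentage of the library's counts (left) and of the TMM-scaled total (right), split into RPS23, RPS6, RPS21 and the other members. On the left all knockdown bars are lower than all control bars, and on the right the groups overlap.

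Subunit proteins are needed in equal numbers, but the counts on the members were far from equal. RPS10 (ENSG00000124614.16_10) had 0 counts in all 6 libraries. With 0 counts, a level of up to 3 counts is still allowed, or 0.443 CPM by library size in the shallowest library and 0.169 CPM in the deepest. RPS28 had 1 count, in control library 1, and RPS26 had 0, 10 and 4 counts in control and 19, 1 and 0 in knockdown. These genes were not tested. RPS26 and RPS28 lie near the mRNA exit and RPS10 in the head, and all of them have been linked to Diamond-Blackfan anaemia. A count near 0 under an ID does not show that the protein was not made.

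Ribosomal protein genes have many processed pseudogenes, near copies of their mRNA elsewhere in the genome. The RefSeq gene table names 697 pseudogenes after the 32 members, from 4 each for RPS9 and FAU to 74 for RPSA. RPS26 has 59, RPS2 has 55 and RPS3A has 54, and these 3 genes had 0.56, 8.73 and 4.55 CPM in control on average. RPS23 has 10 and had 10973 CPM. Not all members followed this order, since RPS6 has 26 and had 3059 CPM, and RPS29 has 33 and had 189 CPM. Across the 32 genes, Spearman's rho between the number of named pseudogenes and the mean control CPM was -0.53, and -0.57 across the 28 tested. The points share the same 3 libraries and are not divided by length, so this is a description. RPS28, with 9, was near 0 with few named pseudogenes, and RPS10 overlaps the read-through gene RPS10-NUDT3. How reads that fit several places or overlapping genes were counted is not given in the sources used here, and its part in these levels was not tested.

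**Figure D5:**
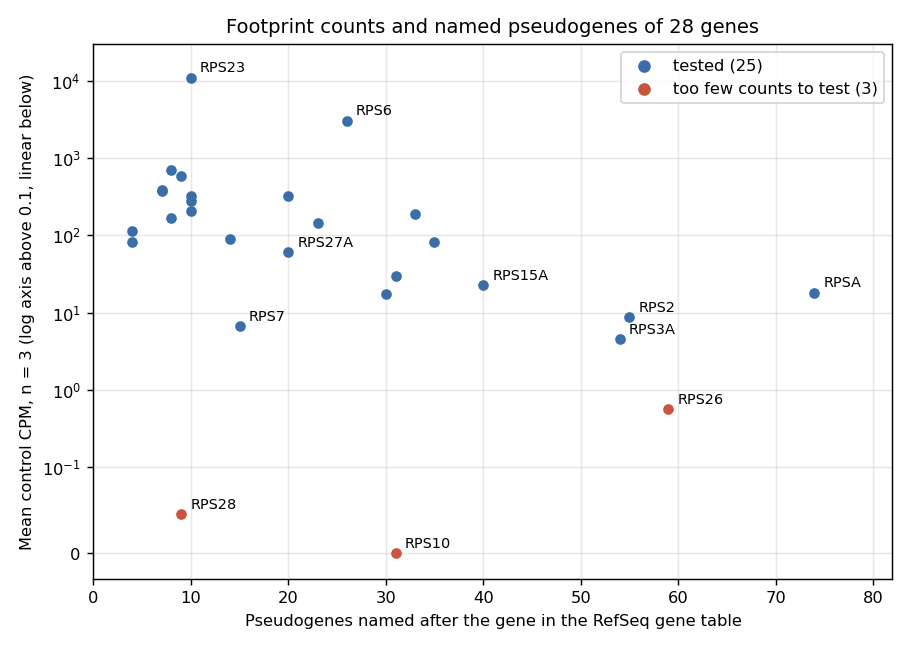
Mean control CPM (3 libraries, log axis above 0.1 and linear below) of 28 of the 32 genes against the number of pseudogenes named after it in the RefSeq gene table. RPS2, RPS3A, RPS26 and RPSA, with 54 to 74, lie below 20 CPM, and RPS10, RPS26 and RPS28, with too few counts to test, lie below 1 CPM.

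Of the 32 genes, 9 hold 19 snoRNA genes within their span in the RefSeq table, which gives no strand. RPS2, RPS3, RPS3A, RPS12, RPS13, RPS20 and RPSA are among them. RPS3 holds SNORD15A and SNORD15B, and RPS13 holds SNORD14A and SNORD14B. These small RNAs guide the modification of rRNA, and a count per gene ID does not show whether reads came from them. In these 9 genes 0 were called in the main edgeR fit, against 3.12% of all features, with a median log2 fold change of -0.21. At an unadjusted p under 0.05 in edgeR there were 3, of which 2 were lower and 1 higher, against 16.3% of all features. DESeq2 called RPS3 and RPS13 of these 9, against 799 of all 11653 features. In the 19 tested members without a nested snoRNA gene, RPS27A was called in edgeR and in DESeq2, and the median was -0.056. The differences of RPS13 and RPS3, which missed the threshold in the main edgeR fit, were in such hosts. The hosts RPS12 and RPSA had log2 fold changes of 0.00048 and 0.044, and RPS27A and RPS27 hold no snoRNA gene. The part of nested RNAs in these differences was not tested.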

How the data were processed

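The authors deposited raw read counts per Ensembl gene ID, made with fastp and Bowtie 1.3.1 on hg38 per the submitters' processing notes. Counter, annotation, strand, read lengths and treatment of multi-mapping reads are not given in the sources. The 6 further columns, named for RNA, match no sample described here and were not used, so translational efficiency was not computed. Without names for other IDs, lists of large-subunit proteins, assembly factors and markers were not analysed here, nor could levels be divided by coding length.

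Counts were fitted with edgeR 4.0.16 in R 4.3.3 over all 6 libraries, with filterByExpr (11653 features kept, 99.8% of counts), TMM, glmQLFit and glmQLFTest (two-sided), and Benjamini-Hochberg adjustment over all features tested. The threshold was 0.05. The SE is the log2 fold change divided by the square root of F. Scripts were tested on simulated data. The alternatives comprised DESeq2 1.42.0, limma 3.58.1 with voom, other scalings and filters, a robust fit, removal of abundant features, a replicate block and the removal of single libraries. All 32 symbols matched the RefSeq gene table (GRCh38.p14). By rule, values per library are given for called members, the 4 largest differences each way, the 4 highest and 4 lowest control levels, the ubiquitin fusions and RPS6. RPS12 and RPS29 were added after their values were seen. The values of some members are not reported here by name or in figures, though they enter the counts and medians. The members and lists were chosen with earlier results of these data known.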

Additional observations from a re-analysis of the deposited data

How the results depend on the processing

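RPS27A kept its direction in each of 17 alternatives and its call in 11, and lost the call in the 6 fits without a library. DESeq2 called 3 of the 28 tested members (RPS3, RPS13 and RPS27A, all lower), against 799 of all 11653 features. Without the filter 2 of 30 members were called (RPS13 and RPS27A), against 735 of 20515 features. With a library left out 0 to 1 were called, and the 1 was RPS13 without knockdown library 1, against 167 of 11944 features. The median log2 fold change of the members was -0.36 by library size alone and -0.21 to 0.0020 with a library left out. By library size the ratio of the summed member counts was 0.822, and 0.804 to 0.846 with a library left out. Without RPS23 it was 0.743 by library size and 0.912 with TMM. With all 32 members it was 1.00 with RLE scaling and with DESeq2 size factors, 0.986 with upper quartile scaling and 0.995 with TMM. With the 50 most abundant non-members removed before TMM it was 0.997. The ratios without RPS23 and the TMM ratio of 0.995 were added after seeing the data. Calls over the whole table numbered 364 of 11653 features. They numbered 799 with DESeq2, 735 of 20515 without the filter and 602 of 6111 with at least 10 CPM in 3 libraries. With a library left out they numbered 47 to 171. With the replicate block they numbered 208, and RPS27A was still called (adjusted p = 0.0371 in edgeR). Deviations of same-numbered libraries correlated at -0.0065, -0.015 and 0.039 over all features, too low to treat the numbers as pairs, although the members' median deviations had the same order by number in both groups. Causes of these differences were not tested. Footprint density per codon was not computed. Counts of RPS2, RPS3A and RPS7 limit what can be said of them.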
